A study of Mus musculus with 8 samples.

Results

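The 34 genes described here are used as genes of the blood vessel wall, and they are not particular to vessels of the retina. Of them, 22 are genes of vascular endothelium, the cells that line a vessel. The other 12 are genes of mural cells, the pericytes and smooth muscle cells wrapped around it. All 34 were taken by name from the probe sets of the array that carry exactly 1 gene symbol, with earlier results of these data known. Each of the 34 had 1 such probe set, out of 19938 genes with one. None of the 34 passed the test in any of 7 comparisons between the groups. *Vcam1*, which encodes an adhesion receptor for leukocytes, came nearest, with a level 1.52-fold that of controls in the inferior retina after hyperoxia (limma adjusted p = 0.11).

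The study asked which genes differ between the superior and the inferior part of the mouse retina, and how each region responds to a raised level of oxygen. The exposed groups were the inferior and the superior retina of C57BL/6J mice kept in 75% oxygen for 14 days from an age of 83 to 90 days, and the control groups were the same regions of unexposed C57BL/6J mice killed at the same age. All of the mice had been raised in dim cyclic light, and each sample pooled the RNA of 2 animals, a male and a female. Each of the 4 groups had 2 Affymetrix Mouse Gene 1.0 ST arrays, so 8 in all. Nothing in the sources used here says whether inferior and superior arrays that share a number drew on the same mice.

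Endothelial cells of the retina are sealed to each other by tight junctions and carry efflux and uptake transporters, which together make the inner blood-retinal barrier, whereas the capillaries of the choroid behind the retina are fenestrated. Pericytes surround the capillaries and depend on platelet-derived growth factor B from the endothelium, and smooth muscle cells set the calibre of arterioles. Activated endothelium displays adhesion receptors through which leukocytes leave the blood, and retinal vessels, above all immature ones, are known to react to the oxygen level.

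Values are log2 levels as deposited, and a difference of 1 on this scale is 2-fold. Adjusted p-values come from a limma fit across all 28853 probe sets, with a threshold of 0.05 and Benjamini-Hochberg adjustment, and they measure only the spread between these samples. The deposited values carry no detection call, so a low level cannot be told from background, and levels are not compared between genes. Because RNA came from whole retinal regions, fewer cells of a type and less RNA per cell cannot be told apart.

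The promoter of *Icam1*, whose product binds leukocyte integrins on endothelium, is shown because *Icam1* and *Vcam1* had the largest differences between hyperoxia and control in the inferior retina and because it holds a match to a 9-base form of the NF-kappaB motif, GGAAATTCC (reverse complement GGAATTTCC). NF-kappaB is the transcription factor through which inflammatory cytokines are known to switch on both genes. The 250 bases before the start of the gene, from RefSeq for GRCm38.p6, lie at chr9:21015690-21015939 on the + strand, and the match, in capitals, lies 153 to 145 bases before the start.
Icam1: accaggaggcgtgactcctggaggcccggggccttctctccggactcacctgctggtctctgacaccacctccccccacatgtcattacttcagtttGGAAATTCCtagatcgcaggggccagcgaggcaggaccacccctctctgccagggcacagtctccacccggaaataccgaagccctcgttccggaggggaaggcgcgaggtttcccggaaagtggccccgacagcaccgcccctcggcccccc
Of the 34 genes, 19 had a promoter sequence available, with 23 promoters between them, and *Icam1* was the 1 gene that held this motif on either strand. Over all 32851 promoters of this length, 94 held it (0.286%). As *Icam1* was shown for this match, these counts do not test whether the motif is more frequent among the 34 genes. The match is a description of letters and not of bound protein.

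Rod genes were high on every array, with a mean log2 level of 13.0 to 13.3 over 4 genes, which marks retina but not its region. Between inferior and superior retina the cone opsin genes *Opn1sw* and *Opn1mw* differed by 0.82 and -0.72 in controls and by 1.38 and -0.73 after hyperoxia. Neither gene was called in these 2 comparisons. Levels of the 34 vessel genes varied between arrays about as much as those of all probe sets. The mean over 8 arrays ranged between 4.88 for *Anpep* and 8.44 for *Rgs5*, and 9 of the 34 genes had a mean under 6. The spread between the highest and the lowest array had a median of 0.37 over the 34 genes, against 0.36 over all probe sets, and it was under 0.50 for 21 of them. Only *Acta2* spanned more than 1, with 1.83.

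Several lists of marker genes for other cell types moved with the arrays. The 7 lens genes had a median 3.56 above their own means on control inferior replicate 2, against -0.80 on control inferior replicate 1 and between -0.66 and 0.07 on the other 6 arrays. The summed linear signal of these lens genes was 756 to 1305 in hyperoxia inferior, 869 to 1226 in hyperoxia superior, 655 to 29100 in control inferior and 735 to 2161 in control superior retinas. The 8 genes of microglia and macrophages summed to 2130 to 2282 in hyperoxia inferior, 1095 to 1110 in hyperoxia superior, 834 to 871 in control inferior and 724 to 791 in control superior retinas. With hyperoxia in the inferior retina all 8 lay above control and 6 were called higher, where 0.492% of all probe sets were called. All 8 glial stress genes lay above control in the same comparison, and 7 were called higher. That list includes *Edn2*, whose raised production the paper, citing earlier work, places in photoreceptors. The methods' t-test kept 1 call in each of these last 2 lists. Both lists were chosen with earlier results of these data known. The paper already reports many of their genes as regulated by hyperoxia on these arrays, so these counts do not test either cell type. The 10 genes of the pigment epithelium summed to 9405 to 9663 in hyperoxia inferior, 9989 to 11132 in hyperoxia superior, 6629 to 10661 in control inferior and 5136 to 7855 in control superior retinas.

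In the inferior retina, hyperoxia against control called 0 of the 34 genes, with 0.492% of all probe sets called. At an unadjusted p under 0.05 there were 4, *Vcam1*, *Icam1*, *Vwf* and *Cnn1* (11.8% of the 34, against 9.39% of all probe sets). The t-test of the study's methods also called 0 after adjustment, and the paper describes no such adjustment. Over all 28853 probe sets it called 2 in this comparison, 2 for hyperoxia averaged over regions and 0 in every other comparison. Its counts of 0 therefore say little about single genes. The 34 genes split into 17 above and 17 below control, with a median difference of -0.0012, against 0.0054 over all probe sets. The exposed and control arrays did not overlap for 7 genes that lay higher and 6 that lay lower with hyperoxia, and 20.5% and 18.1% of all probe sets did so in the same directions. The 95% interval of the difference lay within 1 log2 unit of 0 for every gene but *Acta2*, and within 0.50 for 27 of the 34.

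The leukocyte adhesion receptors had the largest differences of this set in the inferior retina. *Vcam1* had 8.88 and 8.53 in hyperoxia inferior retinas and 8.27 and 8.17 in hyperoxia superior retinas, against 8.16 and 8.04 in control inferior and 8.03 and 7.90 in control superior retinas. Every exposed array lay above every control array, and both hyperoxia inferior arrays lay above the other 6. The margin was narrow: hyperoxia superior replicate 2 had 8.167 and control inferior replicate 1 had 8.162. In the inferior retina, *Vcam1* differed by 0.61 ± 0.13 (SE; 95% interval 0.32 to 0.89; limma adjusted p = 0.11). The size did not pass the threshold in the fit used here, and adjusted p ranged between 0.0383 and 0.441 over the other settings tried. With the variance allowed to follow the mean level, *Vcam1* passed, with an adjusted p of 0.0383.

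*Icam1*, whose promoter is printed above, had 7.12 and 7.28 in hyperoxia inferior and 6.999 and 6.998 in hyperoxia superior retinas, against 6.61 and 6.95 in control inferior and 7.15 and 6.87 in control superior retinas. The inferior exposed arrays lay above both inferior control arrays, whereas the superior groups overlapped. *Icam1* differed by 0.42 ± 0.14 (SE; 95% interval 0.10 to 0.74; limma adjusted p = 0.367) in the inferior retina, and by 0.25 without control inferior replicate 1. *Icam2*, a receptor held at a steady level on resting endothelium, had 6.57 and 6.72 in hyperoxia inferior retinas against 6.89 and 6.66 in control inferior retinas, and its groups overlapped. The summed signal of microglia and macrophage genes was higher on the same exposed arrays. The glial stress genes had median deviations of 1.03 and 0.93 in hyperoxia inferior against -0.50 and -0.57 in control inferior retinas. The part of microglia, macrophage or glial RNA in the *Vcam1* and *Icam1* values was not tested.

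**Figure D1:**
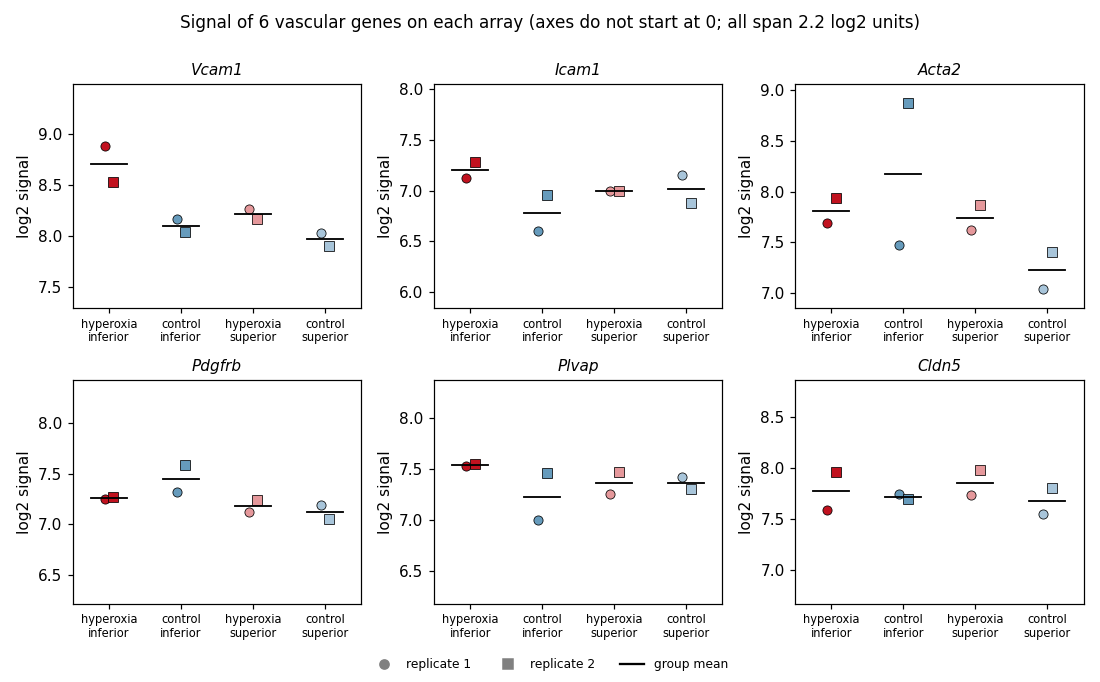
Log2 level on each array (points) and the mean of each group (bar) for *Vcam1*, *Icam1*, *Acta2*, *Pdgfrb*, *Plvap* and *Cldn5*, with 2 arrays in each of the hyperoxia inferior, hyperoxia superior, control inferior and control superior groups. *Vcam1* was highest on the 2 hyperoxia inferior arrays (8.88 and 8.53), and 1 control inferior array stood alone for *Acta2* at 8.87.

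The secreted, fenestral and vasomotor genes gave smaller values. *Vwf* encodes von Willebrand factor, the clotting protein that endothelium stores, and it had 7.15 and 7.31 in hyperoxia inferior retinas against 6.93 and 7.02 in control inferior retinas. These groups did not overlap, with a difference of 0.25 ± 0.09 (SE; limma adjusted p = 0.435). *Plvap* forms the diaphragms of fenestrae and is a marker of leaky endothelium. *Plvap* had 7.53 and 7.55 in hyperoxia inferior retinas against 6.99 and 7.46 in control inferior retinas, a difference of 0.32 ± 0.15 (SE; limma adjusted p = 0.579) that was 0.085 with control inferior replicate 1 left out and 0.55 with replicate 2 of that group left out. The *Plvap* groups did not overlap, but control inferior replicate 2 lay just under the exposed arrays. On replicates 1 and 2, the summed linear signal of 6 choroid and sclera genes was 572 and 649 in hyperoxia inferior and 585 and 712 in control inferior retinas. That of the 10 pigment epithelium genes was 9405 and 9663 in hyperoxia inferior and 6629 and 10661 in control inferior retinas. The part of choroid or pigment epithelium tissue in the *Plvap* values was not tested. In the superior retina *Plvap* had 7.25 and 7.47 with hyperoxia against 7.42 and 7.30 in controls, which overlapped. For *Nos3*, the endothelial nitric oxide synthase, the difference was 0.15 (limma adjusted p = 0.737), and for *Egfl7*, a secreted endothelial protein, it was -0.05 (0.923).

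The genes that define endothelium as such gave no called difference. *Cldn5*, the main claudin of the barrier's tight junctions, had 7.58 and 7.96 in hyperoxia inferior and 7.73 and 7.98 in hyperoxia superior retinas, against 7.75 and 7.69 in control inferior and 7.55 and 7.80 in control superior retinas. The *Cldn5* arrays of all groups overlapped, and the 95% interval of the inferior difference was -0.29 to 0.39. *Pecam1*, the adhesion protein between neighbouring endothelial cells, had 6.57 and 6.55 in hyperoxia inferior and 6.65 and 6.57 in hyperoxia superior retinas, against 6.62 and 6.76 in control inferior and 6.59 and 6.71 in control superior retinas. *Cdh5*, the cadherin of adherens junctions, had 6.51 and 6.74 in hyperoxia inferior and 6.53 and 6.44 in hyperoxia superior retinas, against 6.62 and 6.71 in control inferior and 6.51 and 6.45 in control superior retinas. The inferior *Pecam1* difference was -0.13 with a 95% interval of -0.34 to 0.09, and that of *Cdh5* was -0.04 with an interval of -0.28 to 0.19, so both intervals left out a loss of 0.50.

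Surface and transport genes of endothelium differed without passing the test. *Emcn*, the sialomucin of venous and capillary endothelium, had 5.65 and 5.61 in hyperoxia inferior retinas against 5.93 and 5.85 in control inferior retinas, and the groups did not overlap (difference -0.26 ± 0.18, SE; limma adjusted p = 0.701). *Abcb1a*, the P-glycoprotein efflux pump, had 7.53 and 7.53 in hyperoxia inferior retinas against 7.97 and 7.66 in control inferior retinas (difference -0.28 ± 0.18, SE; limma adjusted p = 0.682; -0.44 to -0.13 over single arrays left out). *Slco1a4*, the other barrier transporter, which takes up organic anions, had 7.81 and 7.25 against 7.56 and 7.65 in the same groups, and its exposed replicates lay on either side of both controls. The receptor genes *Eng* and *Tie1*, the guidance receptor gene *Robo4*, the receptor partner *Ramp2* and the junction gene *Esam* differed by between -0.12 and 0.08, with adjusted p between 0.766 and 0.984. The transcription factors *Sox17*, *Sox18*, *Erg* and *Ets1*, which maintain endothelial identity, differed by between -0.06 and 0.03.

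Among mural cell genes, *Rgs5*, a regulator of G-protein signalling abundant in pericytes, had 8.53 and 8.64 in hyperoxia inferior and 8.37 and 8.50 in hyperoxia superior retinas, against 8.36 and 8.42 in control inferior and 8.37 and 8.35 in control superior retinas. Its inferior difference was 0.20 ± 0.09 (SE; limma adjusted p = 0.563), with no overlap between the inferior groups. *Pdgfrb*, the receptor through which pericytes are recruited, had 7.25 and 7.27 in hyperoxia inferior retinas against 7.32 and 7.58 in control inferior retinas (difference -0.19 ± 0.11, SE; limma adjusted p = 0.658). *Kcnj8* and *Abcc9*, the pore and the sulphonylurea subunit of the pericyte ATP-sensitive potassium channel, differed by -0.15 and -0.14. The pericyte genes *Cspg4*, *Anpep* and *Notch3* differed by 0.05, 0.05 and -0.05.

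Of the contractile genes, *Cnn1*, which encodes calponin of smooth muscle, had 5.66 and 5.58 in hyperoxia inferior retinas against 5.46 and 5.30 in control inferior retinas. The groups did not overlap, with a difference of 0.24 ± 0.10 (SE; limma adjusted p = 0.527). *Acta2*, the smooth muscle actin gene, had 7.69 and 7.94 in hyperoxia inferior and 7.62 and 7.87 in hyperoxia superior retinas, against 7.47 and 8.87 in control inferior and 7.04 and 7.41 in control superior retinas. Control inferior replicate 2, the array with the highest lens signal, stood above the other 7 arrays. The inferior *Acta2* difference was -0.36 (95% interval -1.20 to 0.49), and 0.34 without that array. The part of lens tissue in the *Acta2* value was not tested. *Tagln*, *Myh11* and *Des*, of the same contractile apparatus, differed by -0.14, 0.03 and 0.07.

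**Figure D2:**
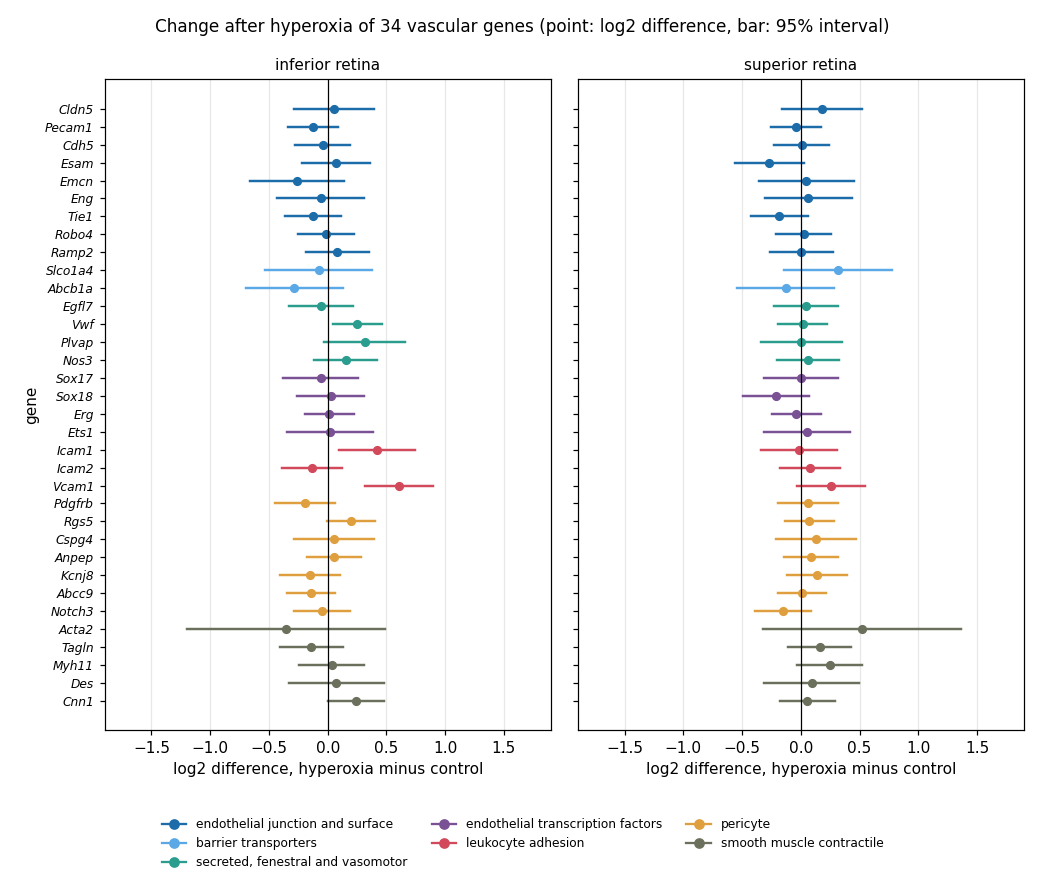
Log2 difference of hyperoxia from control for each of the 34 genes, in the inferior retina and the superior retina, with 95% intervals from the limma fit (2 arrays in each group). *Vcam1* has the highest inferior value, 0.61, and *Acta2* the widest intervals, -1.20 to 0.49 in the inferior retina.

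In the superior retina, hyperoxia against control called 0 of the 34 genes, against 0.0173% of all probe sets, and the methods' t-test also called 0. At an unadjusted p under 0.05 there were 0, against 5.59% of all probe sets. The genes lay above control in 26 cases and below in 8, with a median difference of 0.05 against 0.0022 over all probe sets. Arrays did not overlap for 8 genes that lay higher and 3 that lay lower, where 18.7% and 17.2% of all probe sets did so. *Vcam1* differed by 0.25 (95% interval -0.04 to 0.54; limma adjusted p = 0.894) and *Icam1* by -0.02 (95% interval -0.34 to 0.31).

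Beside *Vcam1*, larger superior values were those of *Acta2* (0.52, 95% interval -0.32 to 1.36), *Slco1a4* (0.32, -0.14 to 0.77), *Esam* (-0.27, -0.56 to 0.02) and *Myh11* (0.24, -0.03 to 0.52). *Esam*, a tight-junction adhesion molecule, had 7.11 and 7.22 in hyperoxia superior retinas against 7.51 and 7.36 in control superior retinas. *Myh11*, the smooth muscle myosin heavy chain, had 6.76 and 6.87 against 6.49 and 6.65 in the same groups. *Slco1a4* had 7.57 and 7.65 in hyperoxia superior retinas against 7.05 and 7.54 in control superior retinas. For these 3 genes the exposed and control arrays of the superior retina did not overlap. *Tie1*, an orphan receptor of endothelium, had 5.71 and 5.92 against 5.99 and 6.01, and *Sox18* had 6.62 and 6.53 against 6.78 and 6.80 (differences -0.18 and -0.21).

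Averaged over both regions, hyperoxia against control called 0 of the 34 genes, where 0.568% of all probe sets were called. *Vcam1* was the 1 gene of the 34 at an unadjusted p under 0.05 (8.98% of all probe sets were), and the methods' t-test called 0 after adjustment. It was also the 1 gene whose 4 exposed arrays all lay above all 4 controls, a pattern found in 2.9% of all probe sets, and 0 genes had the opposite one (2.58%). For *Vcam1* the lowest exposed array, at 8.167, lay just above the highest control array, at 8.162. The averaged *Vcam1* difference was 0.43 ± 0.09 (SE; 95% interval 0.23 to 0.63; limma adjusted p = 0.11), or 1.35-fold. *Vcam1* passed with an adjusted p of 0.0483 when dim probe sets were left out and of 0.0379 with a variance trend. The averaged differences of *Icam1*, *Plvap* and *Rgs5* were 0.20, 0.16 and 0.14, and those of *Abcb1a*, *Tie1* and *Emcn* were -0.21, -0.15 and -0.11, with adjusted p between 0.586 and 0.848. Of the values not given above, *Abcb1a* had 7.34 and 7.87 in hyperoxia superior retinas against 7.61 and 7.87 in control superior retinas. *Tie1* had 5.82 and 5.66 in hyperoxia inferior retinas against 5.81 and 5.92 in control inferior retinas, and both genes overlapped between these groups. For 32 of the 34 genes the 95% interval of the averaged difference lay within 0.50 of 0, the exceptions being *Vcam1* and *Acta2*.

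The difference between the hyperoxia changes of the inferior and the superior retina was called for 0 of the 34 genes (0.00347% of all probe sets), with 0 at an unadjusted p under 0.05 (6.04%) and 0 by the methods' t-test. For *Vcam1* this difference was 0.35, with a 95% interval of -0.06 to 0.76, and for *Icam1* 0.44, with an interval of -0.02 to 0.89 (limma adjusted p = 0.832 and 0.822). Both intervals include 0. *Acta2* gave -0.88 (-2.07 to 0.32), *Slco1a4* -0.39 (-1.04 to 0.25), *Esam* 0.34 (-0.07 to 0.75) and *Emcn* -0.31 (-0.88 to 0.26). These values moved with single arrays: *Acta2* gave -0.18 without control inferior replicate 2 and -1.58 without replicate 1 of that group, *Slco1a4* gave between -0.67 and -0.11, *Emcn* between -0.60 and -0.02 and *Esam* between 0.21 and 0.47.

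Within hyperoxia retinas, inferior against superior called 0 of the 34 genes, where 0.139% of all probe sets were called, and the methods' t-test called 0. At an unadjusted p under 0.05 there were 3, *Vcam1*, *Esam* and *Myh11*, against 8.5% of all probe sets. Arrays did not overlap for 7 genes that lay higher and 6 that lay lower in the inferior region, against 20% and 18.5% of all probe sets. *Vcam1* was 0.49 above its superior level (95% interval 0.20 to 0.78; limma adjusted p = 0.331). *Esam* had 7.39 and 7.65 in inferior against 7.11 and 7.22 in superior exposed retinas, a difference of 0.35 (0.06 to 0.64; limma adjusted p = 0.54). *Myh11* had 6.51 and 6.49 in inferior against 6.76 and 6.87 in superior exposed retinas, a difference of -0.32 (-0.59 to -0.04; limma adjusted p = 0.554). *Emcn* had 5.65 and 5.61 in inferior against 5.71 and 6.28 in superior exposed retinas, where the superior replicates were far apart. *Kcnj8* had 5.83 and 5.72 against 6.01 and 6.01 in the same regions, a difference of -0.24 (limma adjusted p = 0.611), and *Icam1* differed by 0.20 (0.756).

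Within control retinas, inferior against superior called 0 of the 34 genes, where 0% of all probe sets were called, and the methods' t-test called 0. At an unadjusted p under 0.05 there were 2, *Pdgfrb* and *Acta2*, against 5.3% of all probe sets. Arrays did not overlap for 8 genes that lay higher and 5 that lay lower in the inferior region, against 17.5% and 16.7% of all probe sets. *Pdgfrb* had 7.32 and 7.58 in control inferior against 7.19 and 7.05 in control superior retinas, a difference of 0.33 ± 0.11 (SE; limma adjusted p = 0.914). *Acta2* had 7.47 and 8.87 against 7.04 and 7.41 in the same regions, a difference of 0.95 ± 0.37 (SE; limma adjusted p = 0.925). The *Acta2* value rests on control inferior replicate 2: without it the difference was 0.25, and without control inferior replicate 1 it was 1.64, past the threshold at an adjusted p of 0.0164, in a fit that called 53 probe sets in all. *Slco1a4* differed by 0.31, *Cnn1* by -0.23, *Icam1* by -0.23 and *Sox18* by -0.15, with adjusted p between 0.93 and 0.958. *Cnn1* had 5.46 and 5.30 in control inferior against 5.59 and 5.64 in control superior retinas, without overlap. *Sox18* had 6.46 and 6.81 in control inferior retinas, on either side of the 6.78 and 6.80 of control superior retinas.

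Averaged over oxygen, inferior against superior called 0 of the 34 genes, against 0.0173% of all probe sets, and the methods' t-test called 0. At an unadjusted p under 0.05 there were 3, *Vcam1*, *Pdgfrb* and *Myh11*, against 7.87% of all probe sets. *Pdgfrb* was the 1 gene whose inferior arrays all lay above all superior arrays, as 1.69% of all probe sets did, and 0 genes had the opposite pattern (1.85%). On the exposed side *Pdgfrb* had 7.25 and 7.27 in inferior against 7.13 and 7.24 in superior retinas, and the averaged difference was 0.20 ± 0.08 (SE; limma adjusted p = 0.59). The averaged *Vcam1* difference was 0.31 (limma adjusted p = 0.521), that of *Myh11* was -0.21 (0.598), that of *Eng*, a co-receptor of the TGF-beta family, was 0.22 (0.687), that of *Emcn* was -0.21 (0.724) and that of *Cnn1* was -0.14 (0.689). *Eng* had 6.42 and 6.80 in inferior against 6.41 and 6.49 in superior exposed retinas, and 6.66 and 6.68 in inferior against 6.61 and 6.17 in superior control retinas. In control retinas *Emcn* had 5.93 and 5.85 in inferior against 5.81 and 6.09 in superior retinas, and these overlapped. *Cnn1* had 5.66 and 5.58 in inferior against 5.77 and 5.57 in superior exposed retinas, which overlapped as well. *Acta2* gave 0.51 (0.686), and 0.86 with an adjusted p of 0.0494 without control inferior replicate 1, a fit that called 59 probe sets in all.

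**Figure D3:**
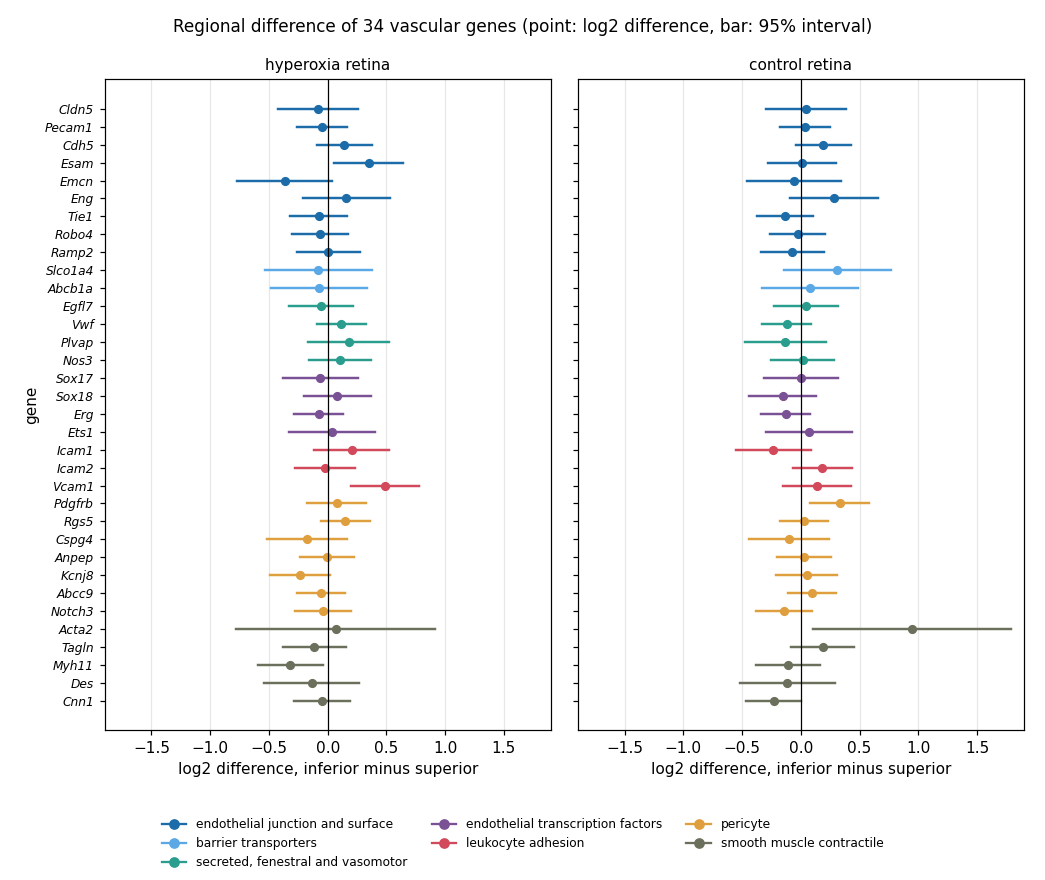
Log2 difference of inferior from superior retina for each of the 34 genes, in hyperoxia and in control retinas, with 95% intervals from the limma fit (2 arrays in each group). The widest control interval is that of *Acta2*, 0.10 to 1.79, which rests on 1 array, and *Vcam1* differs by 0.49 in hyperoxia retinas.

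Other genes of the vessel wall and of leukocyte traffic were counted in lists chosen with earlier results of these data known. Of 24 measured other endothelial genes, 18 other pericyte and smooth muscle genes and 12 genes of nitric oxide, prostacyclin and haemostasis, limma and the methods' t-test called 0 in every comparison. Among them the endothelial list had 5 genes, and the pericyte and smooth muscle list 3, at an unadjusted p under 0.05 for hyperoxia in the inferior retina, and the haemostasis list had 2, where 9.39% of all probe sets had such a p. By the methods' t-test these counts were 1 in the endothelial list, 2 in the pericyte and smooth muscle list and 2 in the haemostasis list.

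Of 15 genes of leukocyte adhesion and endothelial activation, 11 lay above and 4 below control with hyperoxia, in the inferior retina and in the average over regions. The same 2 were called higher in both comparisons, where 0.492% and 0.568% of all probe sets were called. These 2 are integrin chains of leukocytes that pair to form a receptor for ICAM-1 on myeloid cells. In the inferior retina 6 of the 15 had an unadjusted p under 0.05 (40%, against 9.39% of all probe sets). *Itgb2*, the beta chain, had 6.56 and 6.61 in hyperoxia inferior and 6.06 and 5.81 in hyperoxia superior retinas, against 5.56 and 5.81 in control inferior and 5.50 and 5.47 in control superior retinas. Its inferior difference was 0.90 ± 0.12 (SE; limma adjusted p = 0.0183). *Itgam*, the alpha chain, had 7.06 and 6.69 in hyperoxia inferior and 6.28 and 6.31 in hyperoxia superior retinas, against 6.10 and 5.78 in control inferior and 6.00 and 5.95 in control superior retinas. Its inferior difference was 0.94 ± 0.14 (SE; limma adjusted p = 0.0366), and for both genes the exposed inferior arrays lay above every control array. The *Itgb2* call was lost without either hyperoxia inferior array, either control superior array or control inferior replicate 1 (adjusted p 0.0543 to 0.156), and the *Itgam* call was lost without any 1 array other than control inferior replicate 1 (0.0643 to 0.136) and with quantile normalization (0.0786). With only the arrays of the inferior retina in the fit, adjusted p was 0.108 for *Itgb2* and 0.189 for *Itgam*. The averaged *Itgb2* call was lost without either hyperoxia inferior array, either control superior array or hyperoxia superior replicate 1 (0.0514 to 0.0767). The averaged *Itgam* call was lost with quantile normalization (0.0903), with median centring (0.0538) and without any 1 array other than hyperoxia inferior replicate 2 and control inferior replicate 1 (0.0735 to 0.178). Neither gene passed under the methods' t-test, which called 2 of all probe sets in each of these 2 comparisons. Microglia, whose marker genes rose in the same comparison, also make both chains, and their part in these values was not tested. *Itgal*, another integrin chain of this list, differed by 0.14 (limma adjusted p = 0.847) in the inferior retina. *Itga4*, the alpha chain of the receptor for VCAM-1, differed by -0.03 (limma adjusted p = 0.953), and *Sele*, the selectin of activated endothelium, by -0.11 (0.763). *Mcam*, an adhesion molecule of endothelium and mural cells, differed by 0.60 (0.164), and *Selplg*, the selectin ligand of leukocytes, by 0.43 (0.0983).

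Of 12 genes of Notch and PDGF-B signalling, *Hey2*, a transcriptional repressor downstream of Notch, rose with hyperoxia in the average over regions. *Hey2* had 8.05 and 8.01 in hyperoxia inferior and 7.65 and 7.79 in hyperoxia superior retinas, against 7.51 and 7.29 in control inferior and 7.43 and 7.31 in control superior retinas, and every exposed array lay above every control array. The averaged *Hey2* difference was 0.49 ± 0.07 (SE; limma adjusted p = 0.03), and the call was lost without any 1 array other than control inferior replicate 1. It was also lost under the methods' t-test, which called 2 of all probe sets in this comparison. Of 11 transcription factors of the ETS, SOX and KLF kind and their partners, *Nr2f2*, known for venous identity and for dorsal patterning of the eye, was lower in the inferior than the superior region of hyperoxia retinas (difference -0.90, limma adjusted p = 0.0233) and in the average over oxygen (-0.77, 0.031). Its difference in control retinas was -0.65 (limma adjusted p = 0.814), and the exposed call was lost without either hyperoxia inferior array, either control superior array or hyperoxia superior replicate 2 (adjusted p 0.0683 to 0.234). The averaged *Nr2f2* call was lost without any 1 array other than control inferior replicate 1. Neither call passed under the methods' t-test, which called 0 of all probe sets in both comparisons.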

How the data were processed

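RNA from both retinal regions of exposed and control mice was hybridized to the arrays. The authors deposited log2 values per probe set, made in Partek with RMA background correction, core probes and median polish; the sources used here give neither versions nor whether arrays were normalized to each other. Values were used as deposited.

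Genes were named through probe sets that carry 1 symbol, taking the brightest where there were several. A mean for each group was estimated with limma 3.58.1 (R 4.3.3) from 8 arrays and 28853 probe sets (residual degrees of freedom 4, prior 4.47), and Benjamini-Hochberg adjustment covered every probe set. The script was tested on simulated data with changes added to the hyperoxia inferior group. Against control, the fit called 19.4% of the changes of 0.5 log2 units, 73.1% of those of 1 and 98.5% of those of 2. A count of 0 therefore does not show that changes near 0.5 are absent.

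The members and lists were chosen with earlier results of these data known. Values on each array were given for members past the threshold, for the 3 with the smallest p and the 3 highest and 3 lowest differences of each comparison, and for *Cldn5*, *Pecam1*, *Cdh5*, *Plvap*, *Pdgfrb*, *Rgs5*, *Acta2*, *Icam1* and *Vcam1*. Companion genes were named when past the threshold, and *Itgal*, *Itga4*, *Sele*, *Mcam* and *Selplg* were chosen after their values were seen. Alternatives tried were median centring, quantile normalization, a filter at a mean level of 6, averaged probe sets per gene, a variance trend, a fit on a comparison's own arrays, the methods' t-test (an unmoderated contrast of the 2-way model), the replicate number as a block, and each array left out in turn. Companion genes without a 1-symbol probe set were not analysed here.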

Additional observations from a re-analysis of the deposited data

How the results depend on the processing

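With 0 of the 34 genes called in each of the 7 comparisons, *Vcam1* gave a count of 1 for hyperoxia in the inferior retina with a variance trend, and a count of 1 in the average over regions both with a variance trend and with dim probe sets left out. When single arrays were left out, the count ranged between 0 and 1 for inferior against superior in control retinas and in the average over oxygen, the 1 being *Acta2* without control inferior replicate 1. Leaving out single arrays gave median differences over the 34 genes of -0.084 to 0.041 for hyperoxia in the inferior retina, of -0.045 to 0.030 for inferior against superior in hyperoxia retinas and of -0.13 to 0.043 for the difference between the hyperoxia changes, and the causes were not tested. Among named genes, 3 values turned sign: *Acta2* for hyperoxia in the inferior retina was 0.34 without control inferior replicate 2 (-1.06 to 0.34 over single arrays left out), *Emcn* for hyperoxia averaged over regions was 0.037 without hyperoxia superior replicate 1 (-0.25 to 0.037), and *Sox18* for control regions was 0.025 without control inferior replicate 1 (-0.33 to 0.025). Averaging probe sets per gene gives the same values by construction, since each of the 34 has 1. Over all probe sets, hyperoxia in the inferior retina called 142, and between 2 and 374 under the other settings. Without single arrays the counts over all probe sets ranged between 0 and 53 for control regions, between 1 and 59 for regions averaged over oxygen and between 1 and 30 for the difference between the hyperoxia changes. Only 2 arrays a group limit every value, and median 95% intervals reached 0.27 to either side for a difference of 2 groups.

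The replicate number as a block called 0 of the 34 genes in all 7 comparisons. Deviations of arrays with the same number correlated between -0.021 and 0.14 over pairs of groups, and the numbers were not taken to pair the samples. Among companion genes the block ended 1 call, that of *Nr2f2* averaged over oxygen (adjusted p = 0.0674).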

Other observations

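*Ets1*, a transcription factor of endothelium and of lymphocytes, followed the replicate number more than any group. Replicate 2 lay above replicate 1 by 0.24 in hyperoxia inferior, 0.30 in hyperoxia superior, 0.33 in control inferior and 0.28 in control superior retinas, whereas its differences between groups were within 0.07 of 0. Replicate 2 was the higher array in all 4 groups for 4 of the 34 genes, *Ets1*, *Egfl7*, *Erg* and *Acta2* (11.8%, against 7.15% of all probe sets), and the lower one for *Vcam1* and *Abcc9* (5.88%, against 6.3%). *Ets1* was chosen after its values were seen.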
